A study of Zea mays with 30 samples.

Results

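The genes of starch synthesis were followed in the shoot apical meristem (SAM) of maize by 24 spotted cDNA probes, out of 49280 spots on 3 microarray chips named SAM 1.1, 2.0 and 3.0. A probe was taken where its annotated gene carried the symbol or synonym *sh2*, *bt2*, *bt1*, *wx1*, *ae1*, *su1* or *du1*, *agp* with or without digits, or *sbe* with digits. The 24 probes stand for 7 of the 866 genes with a listed probe, with 16 probes of 7 genes on SAM 1.1, 1 probe of 1 gene on SAM 2.0 and 7 probes of 3 genes on SAM 3.0. No listed probe matched *sh2*, *du1* or *sbe3*, and no annotated gene carried the name *su1*, so these genes are not analysed here. Another gene that also carries the name *ae1* has no listed probe either. A gene with the symbol *agp* was left out because its synonyms name a root cap protein and it has no listed probe either.

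RNA was compared between ns mutant seedlings, of genotype *ns1-R* with *ns2-R*, and nonmutant siblings, of genotype *Ns1/ns1-R* with *ns2-R*, from the near-isogenic ns 1:1 line. All plants were homozygous for *ns2-R*, so the groups differ in NS1 function, and every nonmutant still carried 1 mutant allele of *ns1*. At 2 weeks, several SAMs together with the leaf founder cells were laser microdissected and pooled for each replicate, and their RNA was amplified linearly in a pair of rounds. Each chip was hybridized in 6 replicates, ns mutant and nonmutant RNA on the same array in opposite dyes, with ns RNA in Cy3 on 3 arrays and in Cy5 on the other 3. In pooled tissue, fewer cells that express a gene and less RNA per cell cannot be told apart.

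Starch is made in plastids from ADP-glucose. ADP-glucose pyrophosphorylase, built of large and small subunits, makes this sugar nucleotide, starch synthases add its glucose to a growing chain, and branching and debranching enzymes shape the product. Maize has separate genes for many of these steps in the endosperm, where starch is stored in bulk, and in leaves and other tissues, and the classic kernel mutants *brittle*, *waxy* and *amylose extender* are defects of the endosperm forms.

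An RNA was called above background where the spot was at least 2 times as bright as its local background on every array of its chip, in the channel that held that RNA. By this rule 16 of the 24 starch probes were above background in both RNAs, against 58.8% of all spots. On SAM 1.1 10 of 16 starch probes passed (61.2% of all spots), on SAM 2.0 the only one did (53.7%), and on SAM 3.0 5 of 7 (60.3%). The share of starch probes with signal was thus near that of all spots, most of which have no listed gene. Of the probes with a listed gene, as the starch probes have, 74.3% passed on SAM 1.1, 59.5% on SAM 2.0 and 68.7% on SAM 3.0. *AGP2*, with 11 of the probes, weighs heavily in these counts, and what it encodes is not settled by its annotation. Without it, 8 of 13 probes were above background, 61.5%, but the chips differed, with 2 of 7 on SAM 1.1 and 5 of 5 on SAM 3.0.

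The division among the genes was as follows. All 3 probes of *Agpsemzm*, the probe of *bt2*, 4 of 5 probes of *sbe1* and 8 of 11 probes of *AGP2* were above background, while the probes of *bt1*, *ae1* and *wx1* were not. The plot of signal over background shows each array. Brightness was not compared between probes, because cDNA spots differ in length and in the amount of DNA printed.

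**Figure D1:**
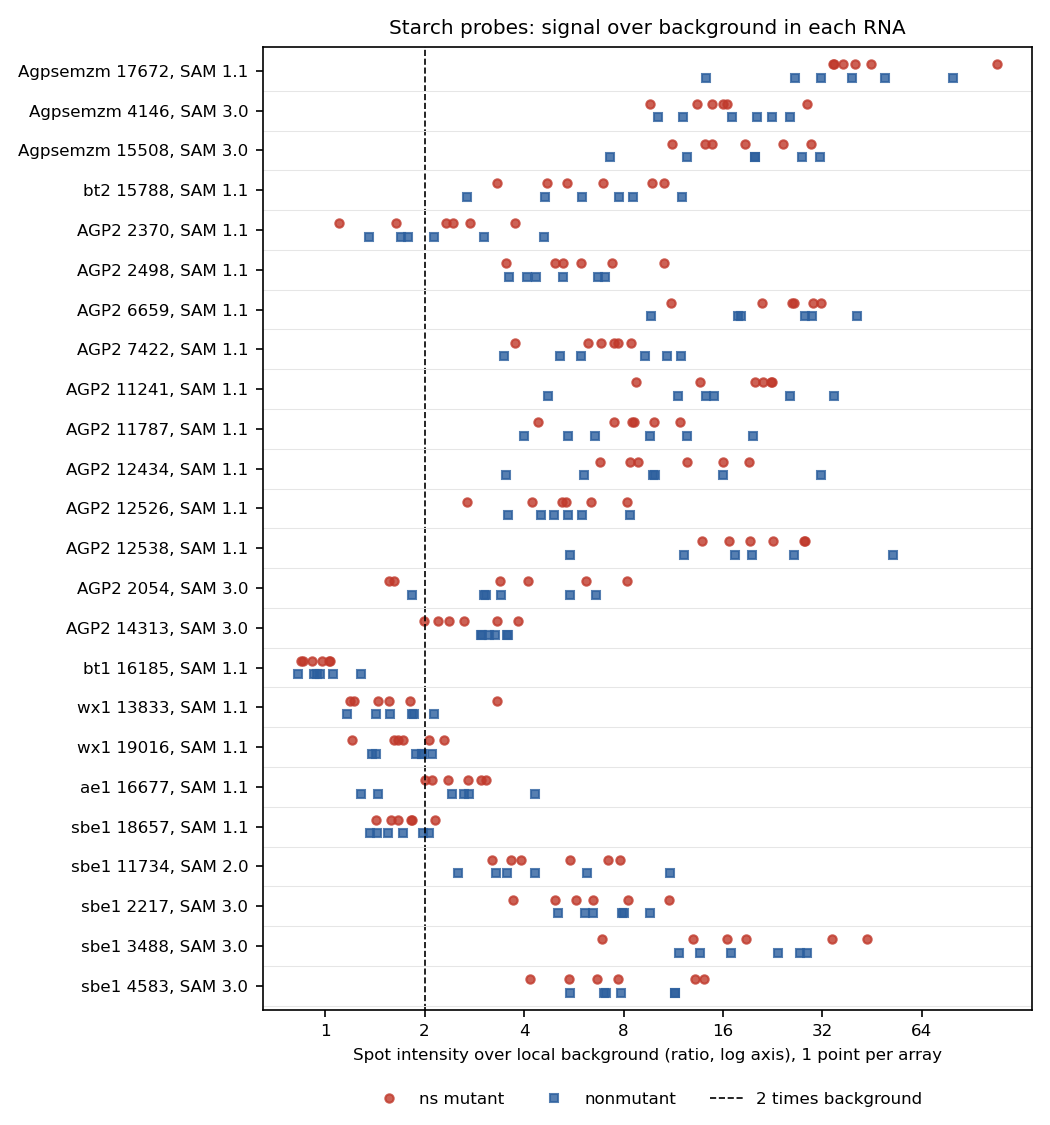
Spot intensity over local background (log axis) of the 24 starch probes, 1 point per array, in ns mutant (upper row of each pair) and nonmutant RNA (lower row), with a dashed line at 2 times background. The *bt1* probe lies near 1 in both RNAs, the *wx1* probes and the *sbe1* probe of SAM 1.1 gather below the line, and the 3 *Agpsemzm* probes lie above 7 on every array.

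Signal over background was read before any normalization, and it moved with the dye. The median spot of an array was brighter over its background in Cy3 than in Cy5 on 4 of 6 arrays of SAM 1.1 and on 6 of 6 arrays of each other chip. These values therefore show whether a spot had signal, and the ns mutant was set against nonmutant only by the normalized log2 ratio, with the dye effect fitted. In all 24 probes the ranges of signal over background overlapped between ns mutant and nonmutant.

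None of the 24 probes passed an adjusted *p*-value of 0.05 in limma, whose calls over all spots were as rare: 1 of 19200 spots on SAM 1.1 (0.00521%), 5 of 14080 on SAM 2.0 (0.0355%) and 2 of 16000 on SAM 3.0 (0.0125%). At an unadjusted *p*-value under 0.05 the count was 0 of 24, where 5.22% (SAM 1.1), 6.03% (SAM 2.0) and 5.34% (SAM 3.0) of all spots passed. The fitted ratios of ns mutant over nonmutant lay between 0.836 and 1.16, and 15 of 24 were below 1. On SAM 1.1 11 of 16 were below 1, against 55.1% of all spots, with a median log2 ratio of -0.09, against -0.02 over all spots. The probe of SAM 2.0 was below 1, as were 49.7% of all spots. On SAM 3.0 3 of 7 were below 1, against 50.2% of all spots. Their median log2 ratio was 0.05, against -0.00034 over all spots, and it was below 0 with the high scan alone (-0.017) and without replicate 4 (-0.010), 5 (-0.016) or 6 (-0.016). Among the 13 probes that remain without *AGP2*, 6 were below 1 and 7 above.

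A *p*-value that misses the threshold does not show that the RNAs were alike, so the interval of each ratio was computed. Each interval is for RNA of the whole dissected SAM. The paper states that RNA from the small lateral domain where NS acts is diluted by that of other SAM cells. A change confined to that domain is therefore not bounded by these intervals. For 15 of the 16 probes above background in both RNAs the 95% interval stayed within 1.5-fold in either direction. The exception was *AGP2* probe 6659 on SAM 1.1, at 0.660 to 1.12. For the 8 other probes the width of the interval says little, because the background correction adds an offset that draws the ratio of a dim spot toward 1. With plain background subtraction the log2 ratio of *AGP2* probe 2370 was -0.47, against -0.17, and that of *wx1* probe 13833 was -0.41, against -0.12. No probe had the same sign on all 6 arrays, with the dye effect taken out or as measured. For 12 of 24 probes the fitted dye effect exceeded the log2 ratio in size. The plot of ratios gives the arrays of each probe around its fitted value.

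**Figure D2:**
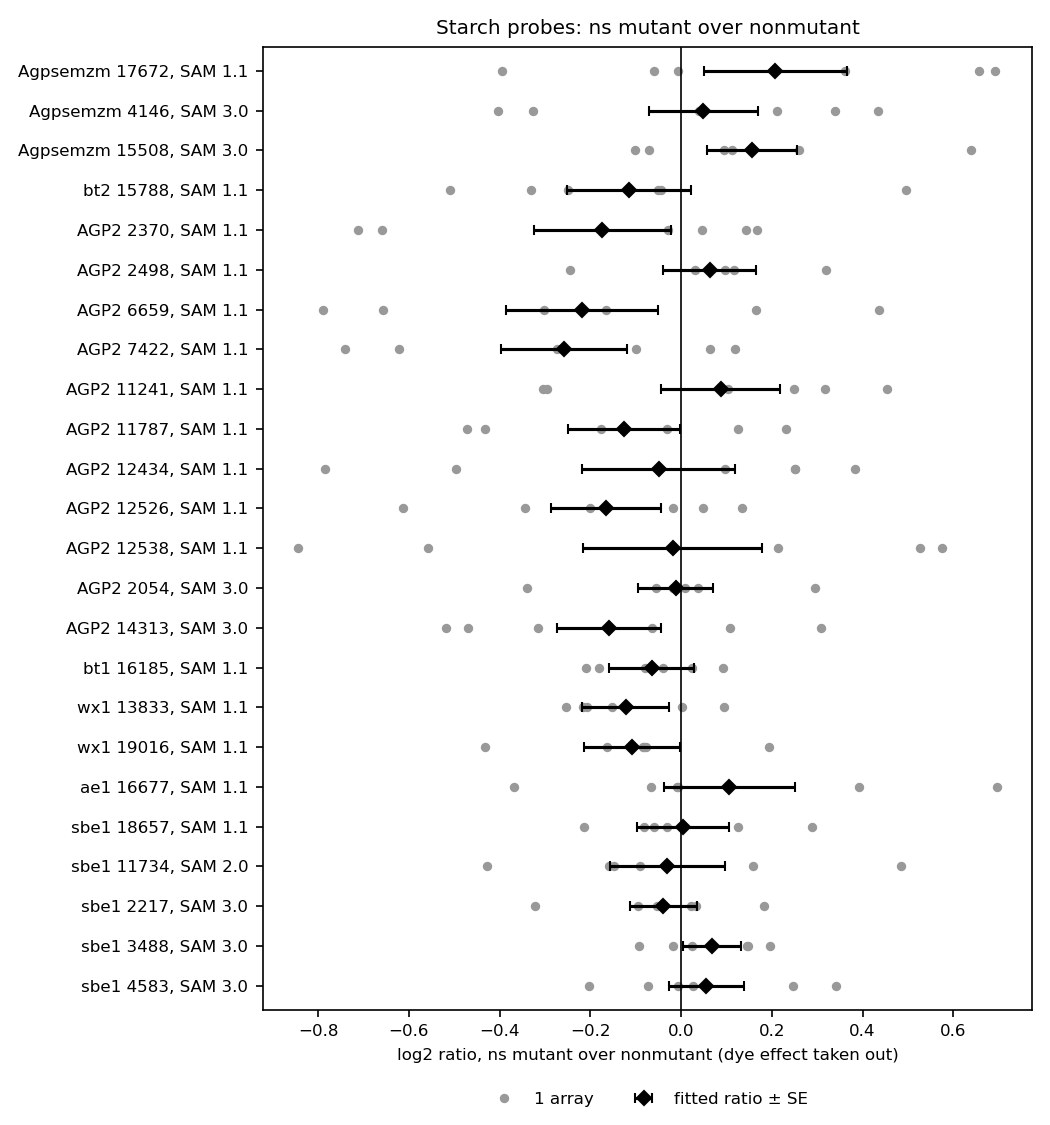
Log2 ratio of ns mutant over nonmutant for the 24 starch probes, with the fitted dye effect taken out. Grey points are single arrays, black diamonds the fitted ratio and bars its SE (6 arrays each). Points of every probe lie on both sides of 0, and the fitted values lie between -0.26 and 0.21.

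*Agpsemzm*, whose name marks it as a small subunit gene of ADP-glucose pyrophosphorylase, was above background on every array in both RNAs with each of its 3 probes. Probe 17672 on SAM 1.1 stood at 34.5, 38.5 and 108 times background (lowest, median and highest of 6 arrays) in ns mutant RNA, against 14.2, 35.2 and 79.3 times in nonmutant RNA. Its measured log2 ratio ran from -0.45 over a median of 0.18 to 0.74 and was above 0 on 4 of 6 arrays. Both signs thus occurred, and the fitted ratio was 1.16 (95% interval 0.901 to 1.48, log2 0.21 ± 0.16 SE, adjusted *p* = 0.831).

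The SAM 3.0 probes of *Agpsemzm* varied less between arrays, with an SD of 0.35 (probe 4146) and 0.27 (probe 15508) in log2 ratio once the dye effect was taken out, against 0.43 for probe 17672. Values of SAM 3.0 are averages of the low, mid and high scans, while SAM 1.1 had a single scan. Among all starch probes the highest SD was 0.35 on SAM 3.0 and 0.58 on SAM 1.1. The part of scan averaging in this was not tested. Probe 4146 stood at 9.62, 15.4 and 28.7 times background in ns mutant RNA, against 10.2, 18.6 and 25.6 times in nonmutant RNA, and its ratio was 1.03 (0.857 to 1.25). Probe 15508 had the smallest unadjusted *p*-value of the starch probes on SAM 3.0, at 0.151. It stood at 11.2, 16.7 and 29.5 times background in ns mutant RNA, against 7.29, 20.0 and 31.4 times in nonmutant RNA. Its measured log2 ratios, from -0.51 over a median of 0.08 to 1.24, were split 3 and 3 by sign, and the dye effect of 0.60 was larger than the fitted log2 ratio of 0.16 ± 0.10 SE (ratio 1.11, adjusted *p* = 0.895). Averaged over both SAM 3.0 probes, the ratio was 1.07 (0.926 to 1.24, adjusted *p* = 0.863 over 598 named genes).

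*bt2*, brittle2, is the small subunit of the endosperm ADP-glucose pyrophosphorylase. Its probe 15788 on SAM 1.1 stood at 3.32, 6.13 and 10.6 times background in ns mutant RNA, against 2.70, 6.82 and 12.1 times in nonmutant RNA. The measured log2 ratio ran from -0.86 over a median of 0.12 to 0.30, above 0 on 4 of 6 arrays, yet with the dye effect of -0.35 taken out it was below 0 on 5 of 6. The fitted ratio was 0.923 (0.745 to 1.14, adjusted *p* = 0.872). As a long cDNA spot, it may also bind RNA of the other small subunit genes, which was not tested.

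*AGP2* had 9 probes on SAM 1.1 and 2 on SAM 3.0. *Agpsemzm* is a separate gene that carries the synonym *Agp2*, by which the rule took it. The annotation of *AGP2* itself holds this symbol and gene model names but no description. Whether *AGP2* encodes a subunit of ADP-glucose pyrophosphorylase is thus not settled, since the abbreviation also serves for arabinogalactan proteins. On SAM 1.1, 8 of its 9 probes were above background in both RNAs, and 7 of 9 ratios were below 1. Probe 7422 had the smallest unadjusted *p*-value of all starch probes, at 0.0958. It stood at 3.75, 7.15 and 8.43 times background in ns mutant RNA, against 3.49, 7.42 and 11.9 times in nonmutant RNA. With measured log2 ratios from -0.92 over a median of -0.19 to 0.29, it was below 0 on 5 of 6 arrays, and the fitted ratio was 0.836 (0.672 to 1.04, log2 -0.26 ± 0.14 SE, adjusted *p* = 0.826).

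Next by *p*-value on SAM 1.1 came *AGP2* probe 12526, at 0.206. It stood at 2.68, 5.29 and 8.17 times background in ns mutant RNA, against 3.58, 5.17 and 8.38 times in nonmutant RNA. Its measured log2 ratios ran from -0.70 over a median of -0.11 to 0.14, and the fitted ratio was 0.892 (0.737 to 1.08, adjusted *p* = 0.831). The other *AGP2* probes of SAM 1.1 that were above background had ratios of 0.859 (probe 6659), 0.917 (probe 11787), 0.966 (probe 12434), 0.987 (probe 12538), 1.05 (probe 2498) and 1.06 (probe 11241). Their medians of signal over background lay between 5.59 and 26.1 in ns mutant RNA and between 4.78 and 22.7 in nonmutant RNA. Probes of 1 gene share the RNA and the array, so they do not count as replicates. Averaged over the 9 probes, the ratio was 0.936 (0.766 to 1.14, adjusted *p* = 0.895 over 583 named genes).

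The same expressed sequence tag, BM073871, was printed as *AGP2* probe 2370 on SAM 1.1 and as probe 2054 on SAM 3.0, and neither spot was above background throughout. Probe 2370 stood at 1.1, 2.38 and 3.74 times background in ns mutant RNA, against 1.36, 1.95 and 4.61 times in nonmutant RNA, and reached 2 times on 4 arrays in ns mutant and on 3 in nonmutant RNA. Probe 2054 stood at 1.56, 3.73 and 8.20 times in ns mutant RNA, against 1.83, 3.24 and 6.59 times in nonmutant RNA, and reached 2 times on 4 and on 5 arrays. The fitted ratios of this sequence were 0.887 (0.700 to 1.12) on SAM 1.1 and 0.992 (0.871 to 1.13) on SAM 3.0. The other *AGP2* probe of SAM 3.0, 14313, missed the rule by 1 array at 1.996 times background in ns mutant RNA, where its median was 2.49 and its highest value 3.84, against 2.96, 3.20 and 3.58 times in nonmutant RNA. Its ratio was 0.896 (0.747 to 1.07) at an unadjusted *p*-value of 0.203, the next smallest on that chip.

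Across replicates the *AGP2* ratios moved together on the chips, a pattern picked out after the values were seen. The mean measured log2 ratio of the SAM 1.1 probes was 0.17, -0.36, -0.52, -0.26, 0.18 and 0.21 in replicates 1 to 6, and that of the SAM 3.0 probes was 0.15, -0.22, -0.39, -0.28, 0.14 and 0.10. Replicates 2, 3 and 4 were thus below 0 and replicates 1, 5 and 6 above 0 on both chips, although ns RNA was in Cy5 in replicates 2 and 4 and in Cy3 in replicate 3. Of the 415 named genes with probes on SAM 1.1 and SAM 3.0, 29 (6.99%) had the same sign in all 6 replicates, and the median gene in 4. The compared genes were not matched in number of probes to *AGP2*, whose means rest on 9 and 2 probes. In replicate 3 9 of 9 probes of SAM 1.1 were below 0, where 60.2% of all spots were, and in replicate 6 2 of 9, where 51.1% were. With the dye effect taken out, the *AGP2* signs again matched in all 6 replicates, as they did for 6.27% of these genes, whereas those of *Agpsemzm* matched in 2 of 6, against 5 of 6 as measured. Those of *sbe1* matched in 2 of 6 between SAM 1.1 and SAM 3.0. Between SAM 2.0 and either of these chips they matched in 4 of 6. The *sbe1* counts were the same as measured and with the dye effect taken out. The study's methods describe 1 set of biological replicate pairs for all array platforms, but neither they nor the labels say that a replicate number marks the same pair on each chip.

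**Figure D3:**
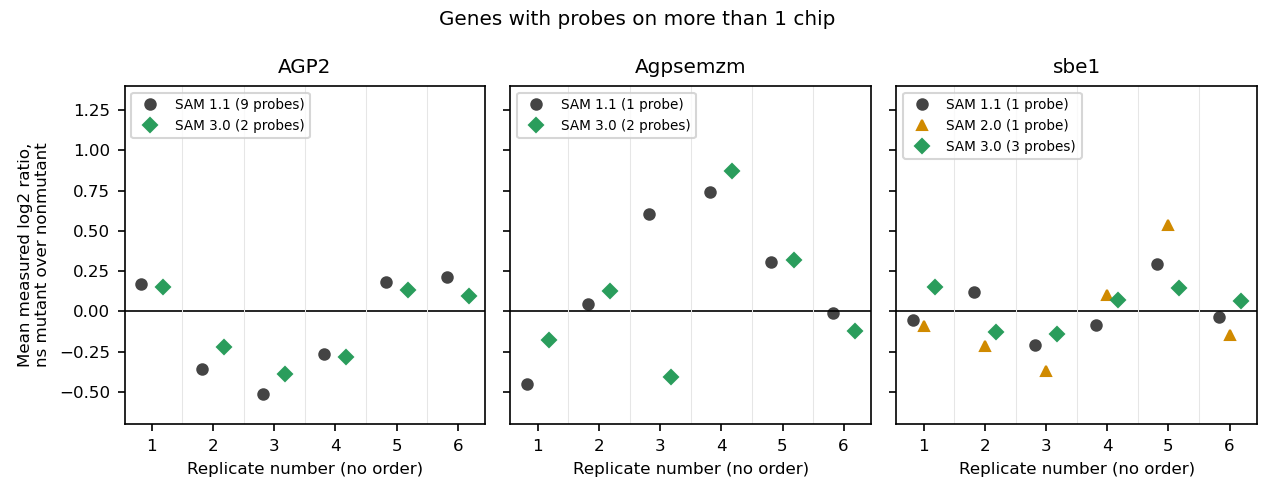
Mean measured log2 ratio of ns mutant over nonmutant in each of the 6 replicates (numbers without order) for the genes with probes on more than 1 chip, by chip. The *AGP2* means share their sign between SAM 1.1 and SAM 3.0 in every replicate, while those of *Agpsemzm* differ in sign in replicate 3, at 0.60 on SAM 1.1 and -0.41 on SAM 3.0, in values that still hold the dye effect.

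*bt1*, brittle1, carries ADP-glucose across the envelope of the endosperm amyloplast. Its probe 16185 on SAM 1.1 stood at 0.847, 0.945 and 1.04 times background in ns mutant RNA, against 0.828, 0.957 and 1.28 times in nonmutant RNA, and on no array did either RNA reach 2 times. It was the only starch probe of which this held, and 13% of the spots of SAM 1.1 were like it. No fold of this spot without signal is given in the text, although the counts of ratios above and below 1 and the plot of ratios include it. For the other probes near background the fitted ratio rests on little signal.

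*wx1*, waxy1, is the granule-bound starch synthase that makes amylose in endosperm and pollen. Probe 13833 stood at 1.19, 1.5 and 3.32 times background in ns mutant RNA, against 1.16, 1.70 and 2.13 times in nonmutant RNA, and reached 2 times on 1 array in each. Probe 19016 stood at 1.21, 1.69 and 2.29 times in ns mutant RNA, against 1.38, 1.92 and 2.10 times in nonmutant RNA, and reached it on 2 arrays and on 1. Both had a mean intensity below the 25th percentile of the chip. Their ratios were 0.919 (0.790 to 1.07) and 0.928 (0.786 to 1.1), and their mean had a ratio of 0.924 (0.817 to 1.04, adjusted *p* = 0.854).

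*ae1*, amylose extender1, is starch branching enzyme IIb of the endosperm. Its probe 16677 lay at the border, at 2.01, 2.53 and 3.06 times background in ns mutant RNA, against 1.29, 2.52 and 4.33 times in nonmutant RNA. Every ns mutant value thus passed 2 times, as did 4 of 6 nonmutant values. The ratio was 1.08 (0.859 to 1.35, adjusted *p* = 0.887), with measured log2 ratios from -0.51 over a median of 0.11 to 0.55.

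*sbe1* encodes starch branching enzyme I and was the only starch gene with probes on all 3 chips. Probe 18657 on SAM 1.1 was dim, at 1.43, 1.74 and 2.15 times background in ns mutant RNA, against 1.37, 1.63 and 2.07 times in nonmutant RNA. The probe of SAM 2.0, 11734, stood at 3.19, 4.65 and 7.81 times in ns mutant RNA, against 2.53, 3.93 and 11.1 times in nonmutant RNA. A reading of *sbe1* from SAM 1.1 alone would thus have placed it with the genes near background.

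On SAM 3.0 the 3 probes of *sbe1* were above background throughout. Probe 2217 stood at 3.70, 6.10 and 11.0 times in ns mutant RNA, against 5.05, 7.16 and 9.64 times in nonmutant RNA. Probe 3488 stood at 6.89, 17.5 and 43.7 times in ns mutant RNA, against 11.7, 19.9 and 28.8 times in nonmutant RNA. Probe 4583 stood at 4.17, 7.15 and 14.0 times in ns mutant RNA, against 5.50, 7.46 and 11.5 times in nonmutant RNA. The ranges of both RNAs overlapped in each. The median spot of that chip likewise spanned more in ns mutant RNA, from 2.91 to 9.91 times over the arrays, than in nonmutant RNA, from 4.48 to 8.09 times.

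The *sbe1* ratios of ns mutant over nonmutant lay close together. They were 1.00 (0.855 to 1.18) for probe 18657, 0.979 (0.812 to 1.18) for probe 11734, 0.973 (0.866 to 1.1) for probe 2217, 1.05 (0.947 to 1.16) for probe 3488 and 1.04 (0.913 to 1.18) for probe 4583. The mean of the 3 SAM 3.0 probes had a ratio of 1.02 (0.922 to 1.13, adjusted *p* = 0.976), the narrowest interval of any starch gene on these chips. Measured log2 ratios of probe 3488 were above 0 on 5 of 6 arrays, with an SE of 0.06.

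The rest of the pathway was followed by 31 further probes of 9 genes, from lists of other synthesis genes, precursor supply, breakdown and regulators. Of these, 17 were above background in both RNAs, a share below the 58.8% of all spots. None passed the adjusted threshold, and 2 of 31 passed an unadjusted *p*-value of 0.05, near the share of all spots given above, *phi1* probe 17067 on SAM 1.1 (log2 0.31 ± 0.12 SE, adjusted *p* = 0.826) and *bmy1* probe 11484 on SAM 2.0 (log2 0.28 ± 0.12 SE, adjusted *p* = 0.809). Ratios were below 1 in 18 and above 1 in 13, with a median log2 ratio of -0.02. *phi1* encodes phosphohexose isomerase and *bmy1* a beta-amylase.

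*GBSSIIa*, a granule-bound starch synthase of the kind found outside the endosperm, was above background with 7 of 8 probes, beside 0 of 2 for *wx1*. *AGPLS3*, by name a large subunit of ADP-glucose pyrophosphorylase, had its single probe at 18.3, 21.0 and 64.9 times background in ns mutant RNA, against 8.36, 22.5 and 39.3 times in nonmutant RNA, with a log2 ratio of 0.16 ± 0.18 SE. *phi1* was above background with 5 of 6 probes and *bmy1* with 2 of 3. Soluble starch synthase I (*ss1*) passed with 1 of 4, isoamylase 3 (*iso3*) with 1 of 2, and *su2*, starch synthase IIa, and *zpu1*, a pullulanase-type debranching enzyme, with 0 of 3 each. *o2*, opaque2, a transcription factor of the endosperm, had 1 probe that did not pass, with medians of 5.72 times in ns mutant and 5.21 times in nonmutant RNA but a lowest nonmutant value of 1.89. These counts describe probes, whose printed sequences may share signal with related genes, and no difference between genes was tested.

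**Figure D4:**
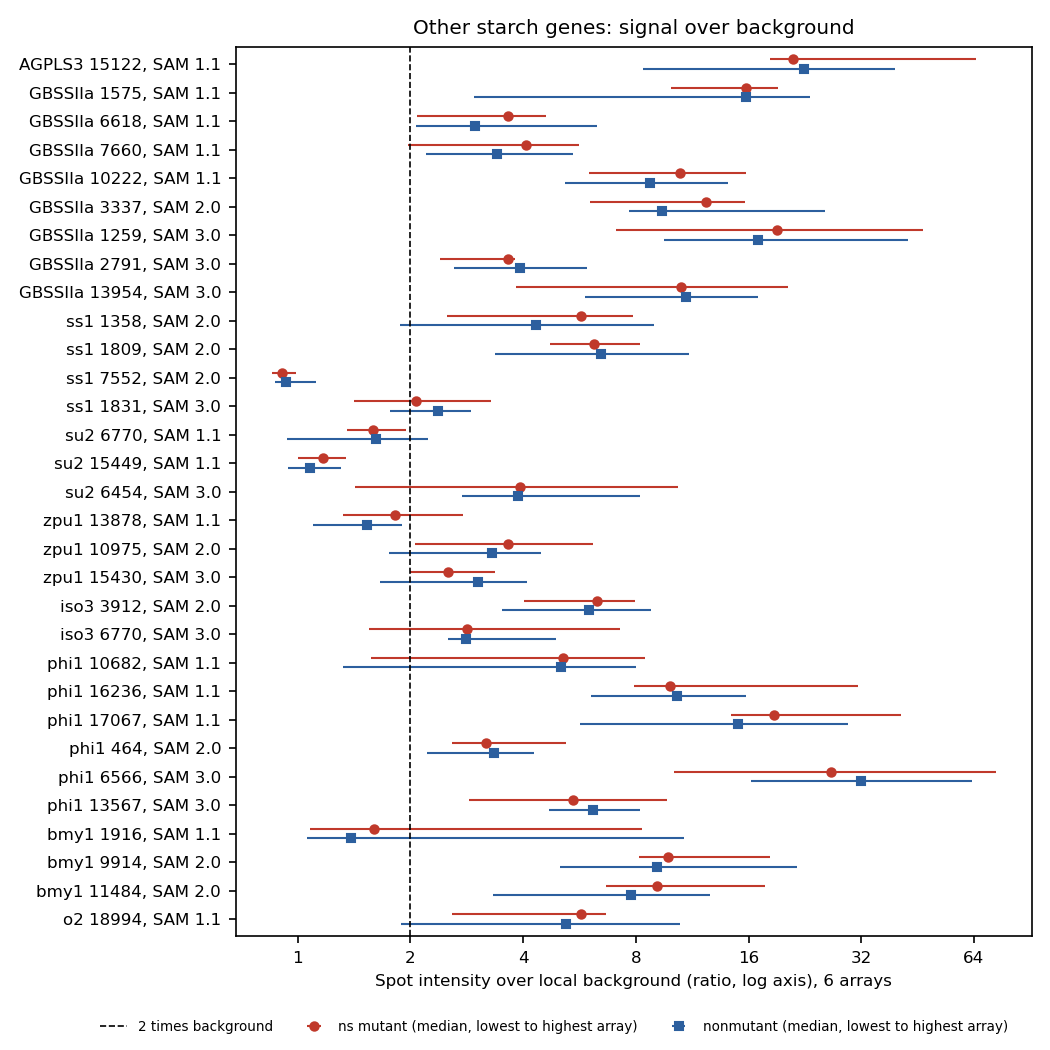
Spot intensity over local background (log axis) of the 31 probes of other starch genes in ns mutant (red, upper) and nonmutant RNA (blue, lower), as the median of 6 arrays with a bar from the lowest to the highest array. The *GBSSIIa* probes and the *AGPLS3* probe lie to the right of the dashed line at 2 times background in their medians, while *ss1* probe 7552 and *su2* probe 15449 lie near 1.

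The dissected tissue was checked against marker lists by the same rule. Of the meristem markers, 14 of 24 probes were above background, no more than the 58.8% of all spots. The chips differed, with 5 of 6 on SAM 1.1, 1 of 6 on SAM 2.0 and 8 of 12 on SAM 3.0. Over all spots the shares on these chips were 61.2%, 53.7% and 60.3%, and over probes with a listed gene 74.3%, 59.5% and 68.7%. Above background were 6 of 8 probes of *kn1*, the KNOX homeobox gene of shoot meristems, and 0 of 4 of *knox8*. Of the list of leaf photosynthesis markers 10 of 33 were above background, a lower share than that of all spots. By chip this was 3 of 6 on SAM 1.1, 5 of 25 on SAM 2.0 and 2 of 2 on SAM 3.0. The list also took in 2 probes of *pdk1*, both above background. That gene has the synonym *pdlk1* and is separate from *ppdk1*, so it may not be a photosynthesis gene. Of the seed storage protein genes 4 of 7 were above background, near the share of all spots. These were globulin probes, with none for the zein *zp27*. No marker probe passed the adjusted threshold between ns mutant and nonmutant RNA. At an unadjusted *p*-value under 0.05 there were 1 of 24 meristem, 4 of 33 leaf and 2 of 7 seed probes. They include *ppdk1* probe 3105 of the leaf list, at a ratio of 1.52 (1.24 to 1.87, adjusted *p* = 0.291), and *glb1* probe 6205 of the seed list, at 1.41 (1.18 to 1.68, adjusted *p* = 0.331), both on SAM 2.0 and higher in ns mutant RNA on 6 of 6 arrays with the dye effect taken out. Also among them, *pdk1* probe 10652 of the leaf list on SAM 3.0 went the other way, at 0.864 (0.754 to 0.989, adjusted *p* = 0.891). The meristem probe was *kn1* probe 4915 on SAM 1.1, at 0.789 (0.644 to 0.967, adjusted *p* = 0.826), below 1 on 5 of 6 arrays. The probes named for their *p*-value were singled out after their values were seen, and their lists went both ways. Ratios were below 1 in 13 of 33 leaf, 17 of 24 meristem and 1 of 7 seed probes. The *glb1* probe of SAM 3.0 was at 1.02, and the log2 ratios of the 8 *kn1* probes ran from -0.34 to 0.05. Any part of these cells in the starch values was not tested.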

How the data were processed

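The authors deposited, for each array, scanner intensities of every spot and its local background in Cy3 and Cy5, together with the natural log of Cy5 over Cy3 that the authors made by background subtraction, LOWESS and median centring. The arrays were scanned with a ScanArray instrument and read with Digital Genome System software. A genome build for the probes is not given in the sources used here. Gene names came from the platform annotation, updated by gene identifier through the RefSeq table of assembly Zm-B73-REFERENCE-NAM-5.0; 3845 probes had 1 gene symbol, 24 had several and 45411 had none listed here, so further starch probes may be unnamed.

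The mean intensities were used because the authors' values followed them more smoothly than the medians in 30 of 30 scans. For SAM 3.0 the low, mid and high scans of a replicate were averaged, as scans of the same number were more alike than scans of other numbers for 18 of 18. Normexp (offset 50) corrected the background, log2 ratios were normalized by loess (span 0.3) and channels centred on their medians. The main fit in limma 3.58.1 (R 4.3.3) had an ns effect and a dye effect, as in the study's model, with *p*-values adjusted by Benjamini-Hochberg over all spots of a chip; ns mutant and nonmutant RNA are paired on the array, which leaves 4 residual degrees of freedom per probe. Ratios of genes are fits of the mean over a gene's probes. Signal over background is spot mean over local background mean, and no starch probe was saturated. Median signal over background of an array ran from 2.91 to 10.7 in ns mutant and from 2.60 to 10.0 in nonmutant RNA, and the number of arrays limits the precision.

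Every starch probe is named. Values by array are given for up to 2 probes a chip with the smallest *p*-value, for genes on several chips and for probes not above background. The labels call the replicates biological, and *p*-values measure the spread between them. The genes and lists were chosen with earlier results of these data known. The fit was tested on simulated data, only with planted changes larger than the fitted ratio of any starch probe. That test does not cover changes of the size seen here.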

Additional observations from a re-analysis of the deposited data

Results flagged for a closer look

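In 72 groups of 6 arrays (signal over background in ns mutant RNA, the same in nonmutant RNA, and the log2 ratio with the dye effect taken out, for each of 24 probes), a gap test for a lone array picked out 2, where chance alone picks about 1 in 20. *Agpsemzm* probe 17672 on SAM 1.1 stood at 108 times background in ns mutant RNA of replicate 3, where the next array was at 44.9 and the lowest at 34.5. *AGP2* probe 7422 on SAM 1.1 stood at 3.75 times background in ns mutant RNA of replicate 2, where the next array was at 6.25 and the highest at 8.43.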

How the results depend on the processing

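None of 447 values of the 24 probes under 21 alternative settings passed the adjusted threshold (lowest adjusted *p* = 0.213), and 13 probes kept the sign of their ratio in all of them. Some settings leave the log2 ratio of a probe as it was, so its sign could not turn there. These are the study's *t*-test, the fits without the paired block or the dye effect, adjustment over all chips, and omission of dim spots. The count of starch probes above background changed by over 1.5 times once, on SAM 2.0 to 0 at 3 times background. A fit without the paired block took the channels as separate samples, which in this balanced design leaves the log2 ratio as it was. For *AGP2* probe 7422, at -0.26, the adjusted *p* of that fit was 0.99996, and each chip had 0 calls.

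The sign of a log2 ratio turned as follows. *sbe1* probe 18657 was at -0.011 with plain background subtraction, -0.0014 with ratios scaled between arrays, -0.085 with the authors' values and -0.044 with medians of intensity, an alternative chosen after seeing the data. *sbe1* probe 11734 was at 0.00055 with scaling, 0.0041 with the authors' values and 0.012 with medians. With the mid scan alone *AGP2* probe 2054 was at 0.12, *sbe1* probe 2217 at 0.018 and the *AGP2* mean of SAM 3.0 at 0.025, and with the high scan alone *Agpsemzm* probe 4146 was at -0.027 and *sbe1* probe 4583 at -0.017. The median over the starch probes of SAM 3.0 was at -0.017 with the high scan alone. With array weights *AGP2* probes 12434, 12538 and 2054 were at 0.040, 0.18 and 0.097. The cause was not tested.

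Leaving out 1 replicate at a time turned the sign of some values, whose ranges were -0.00036 to 0.14 for *AGP2* probe 2498, -0.0045 to 0.19 for 11241, -0.16 to 0.13 for 12434, -0.17 to 0.19 for 12538 and -0.088 to 0.070 for 2054, -0.041 to 0.23 for *ae1*, -0.047 to 0.16 for *Agpsemzm* probe 4146, and -0.067 to 0.059, -0.16 to 0.069, -0.094 to 0.032 and -0.016 to 0.12 for *sbe1* probes 18657, 11734, 2217 and 4583. For gene means they were -0.18 to 0.020 (*AGP2*, SAM 1.1), -0.15 to 0.00095 (*AGP2*, SAM 3.0), -0.0058 to 0.18 (*Agpsemzm*, SAM 3.0) and -0.0039 to 0.069 (*sbe1*, SAM 3.0). Without replicate 1, SAM 1.1 had 276 calls over all spots, against 1 with it, and 0 of them were starch probes. Without any other single replicate SAM 1.1 had 0 or 1 calls, and without each replicate in turn SAM 2.0 had 3 to 12 (12 without replicate 5), against 5 with all, and SAM 3.0 had 0, against 2.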
